A study of Mus musculus with 34 samples.

Results

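Cholesterol synthesis genes fell, and the efflux genes Abca1, Abcg1 and Apoe rose, in the spinal cord between the first and the third day after injury, taken as the mean over mice without trkB.T1 (knockout, KO) and wild-type (WT) mice. The genes described here are 32 named genes of cholesterol metabolism, in 3 groups: 18 synthesis enzymes, 5 regulators of the sterol-sensing SREBP system, and 9 genes of transport, storage, efflux and conversion. A gene was taken by its symbol in the annotation of the array, with the probe set of highest mean over the 34 arrays. Of the 32, 29 had a probe set under their symbol, and Acat2, Soat1 and Nr1h2 were not analysed here. Signal reached the limit for testing, above log2 4 on at least 4 arrays, for 28 of the 29, which are 28 of the 11993 genes tested in all. Each of the 28 was above log2 4 on all 34 arrays: 17 synthesis enzymes, 5 regulators and 6 transport genes. Nr1h3, which encodes the oxysterol receptor LXRα, read 2.17 on every array other than 1 KO array at day 3, where it read 2.32, so nothing can be said of its change.

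Cholesterol is built in the cell from acetyl-CoA through mevalonate, isoprenoid diphosphates, squalene and a chain of sterol precursors. When sterol in the endoplasmic reticulum is low, Scap carries the SREBP transcription factors to the Golgi, where they are cleaved and then activate the synthesis genes; when it is high, the Insig proteins hold Scap back, and oxysterols activate LXR receptors, whose known targets are Abca1, Abcg1, Apoe and Srebf1. In the central nervous system cholesterol is made locally, because lipoproteins of the blood do not cross the barrier, and myelin holds most of it.

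The tissue was spinal cord, and each array measured 1 sample on an Affymetrix mouse expression array. The KO groups were trkB.T1 null mice, which lack the truncated receptor encoded by Ntrk2, and comprised 4 arrays after sham surgery (an operation that left the cord whole), 4 at day 1 after spinal cord injury, 5 at day 3 and 4 at day 7. The WT groups comprised 4 sham arrays, 5 at day 1, 4 at day 3 and 4 at day 7. The labels give no strain, age, sex, cord level or injury severity, and nothing in them says whether the arrays came from different animals, so p-values measure the spread between these samples, which may be technical.

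Of the 8 probe sets of Ntrk2, 2 were lower in KO than in WT cord at each of the 4 times, by 4.82 to 6.91 on the log2 scale. The array labelled KO sham replicate 2 read 9.46 and 8.59 on them, against at most 4.94 and 2.83 on the other KO arrays and at least 10.01 and 8.65 on the WT arrays, so it goes against its label, and counts of called genes in comparisons with KO sham cord are also given without it where they change. WT day 3 replicate 2 and KO day 3 replicates 3 and 4 stood apart from their groups, and counts of called genes at day 3 are also given without these 3 arrays where they change. Array medians ran from 4.14 to 4.39. Markers of oligodendrocytes, the cells that make myelin, averaged 13.71, 13.40, 13.26 and 13.36 over 9 genes in KO cord at sham, day 1, day 3 and day 7, and 13.79, 13.54, 13.35 and 13.45 in WT cord. Values are log2 signal throughout, ± gives a standard error beside a difference and an SD beside a level, and a gene is said to have risen or fallen where limma's adjusted p was at most 0.05. Signal is not comparable between probe sets, so only changes are set side by side.

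Promoter windows are shown for 6 of the genes described below: synthesis enzymes that fell (Msmo1, Hmgcs1, Idi1), the regulators Insig1 and Srebf2, which fell with them, and Abca1, which rose. The windows are RefSeq's, on GRCm38.p6, 300 bases long and read along the gene, with the annotated start after base 250. Capitals mark CACNCCA, the core letters of the sterol regulatory element that SREBP factors are known to bind, and CCAAT, the box that NF-Y, a partner of SREBP, is known to bind, each on either strand. No match to one overlaps a match to the other in the 6 windows. Msmo1 is at chr8:64733529-64733828 (minus strand), Hmgcs1 at chr13:119690101-119690400 (plus), Idi1 at chr13:8885356-8885655 (plus), Insig1 at chr5:28071162-28071461 (plus), Srebf2 at chr15:82147019-82147318 (plus) and Abca1 at chr4:53159846-53160145 (minus).
Msmo1: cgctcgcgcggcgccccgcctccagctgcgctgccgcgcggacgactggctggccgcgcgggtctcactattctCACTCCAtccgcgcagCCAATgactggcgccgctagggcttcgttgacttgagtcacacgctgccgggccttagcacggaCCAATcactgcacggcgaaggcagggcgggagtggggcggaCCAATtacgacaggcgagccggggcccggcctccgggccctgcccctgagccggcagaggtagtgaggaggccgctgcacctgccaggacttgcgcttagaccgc
Hmgcs1: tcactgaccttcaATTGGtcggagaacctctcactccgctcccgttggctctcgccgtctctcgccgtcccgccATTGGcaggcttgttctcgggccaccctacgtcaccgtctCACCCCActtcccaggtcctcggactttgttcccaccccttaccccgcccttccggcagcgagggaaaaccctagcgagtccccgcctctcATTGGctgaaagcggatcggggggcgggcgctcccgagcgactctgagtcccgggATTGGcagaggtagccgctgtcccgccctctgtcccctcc
Idi1: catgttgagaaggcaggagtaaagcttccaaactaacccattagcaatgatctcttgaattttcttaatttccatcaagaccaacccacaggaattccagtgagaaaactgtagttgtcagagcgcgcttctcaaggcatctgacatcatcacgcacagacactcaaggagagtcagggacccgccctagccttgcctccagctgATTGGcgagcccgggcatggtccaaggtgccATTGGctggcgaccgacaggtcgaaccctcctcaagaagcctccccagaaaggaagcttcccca
Insig1: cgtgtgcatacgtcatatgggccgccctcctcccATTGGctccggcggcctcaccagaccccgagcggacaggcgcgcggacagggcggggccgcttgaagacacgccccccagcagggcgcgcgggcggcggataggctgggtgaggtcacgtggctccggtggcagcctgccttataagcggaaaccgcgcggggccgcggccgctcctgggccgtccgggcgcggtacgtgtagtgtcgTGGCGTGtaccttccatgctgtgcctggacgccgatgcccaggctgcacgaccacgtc
Srebf2: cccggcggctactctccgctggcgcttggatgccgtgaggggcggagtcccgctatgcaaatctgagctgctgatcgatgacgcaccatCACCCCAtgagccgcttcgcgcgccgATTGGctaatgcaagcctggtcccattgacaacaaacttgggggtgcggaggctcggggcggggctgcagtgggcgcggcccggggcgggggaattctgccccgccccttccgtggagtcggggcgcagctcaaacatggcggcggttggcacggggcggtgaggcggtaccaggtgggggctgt
Abca1: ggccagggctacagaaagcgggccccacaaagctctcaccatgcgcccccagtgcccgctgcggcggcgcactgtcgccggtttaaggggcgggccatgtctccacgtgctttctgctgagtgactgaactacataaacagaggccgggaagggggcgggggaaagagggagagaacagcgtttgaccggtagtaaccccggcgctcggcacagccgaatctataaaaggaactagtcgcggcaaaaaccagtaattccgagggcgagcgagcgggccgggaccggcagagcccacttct

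Msmo1 holds 1 match to CACNCCA and 3 to CCAAT, Hmgcs1 holds 1 and 4, and Idi1 holds none and 2. Insig1 and Srebf2 hold 1 of each, and Abca1 holds neither. Windows were listed for 14 of the 17 synthesis enzymes tested, 1 to 3 for a gene, 17 windows in all. CCAAT was found in 14 of the 17 windows, at least 1 for each gene, against 37.4% of all 32851 windows of the same length. CACNCCA was found in 2 of the 17 (Hmgcs1 and Msmo1), against 18.4% of all windows. Both of these are among the windows shown above, which therefore do not stand for the enzymes as a set. The GC box GGGCGG, searched on both strands and not marked above, was found in 14 of the 17 windows, against 35.7% of all windows. Of 10 windows of the 5 regulators, 4 held CACNCCA and 5 held CCAAT, and of 6 windows of Abca1, Apoe, Lcat and Cyp46a1, 1 held CACNCCA and 2 held CCAAT. A match describes letters in a window and not a bound site, and a window without one says nothing of the factor.

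At day 7 all 17 synthesis enzymes were lower than in sham cord, in KO and in WT mice. The median difference was -1.27 in KO cord (from -1.89 to -0.40) and -1.38 in WT cord (from -1.94 to -0.43), while the median over all genes tested was -0.06 in both. Of all genes tested, 31.0% were lower at day 7 in KO cord and 33.3% in WT cord. At day 7 all injured arrays lay below all sham arrays for each of the 17 enzymes in either genotype, as they did for 35.8% of all genes tested in KO cord and 33.0% in WT cord. The KO comparisons at days 1, 3 and 7 share their 4 sham arrays, and so do the WT comparisons.

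**Figure D1:**
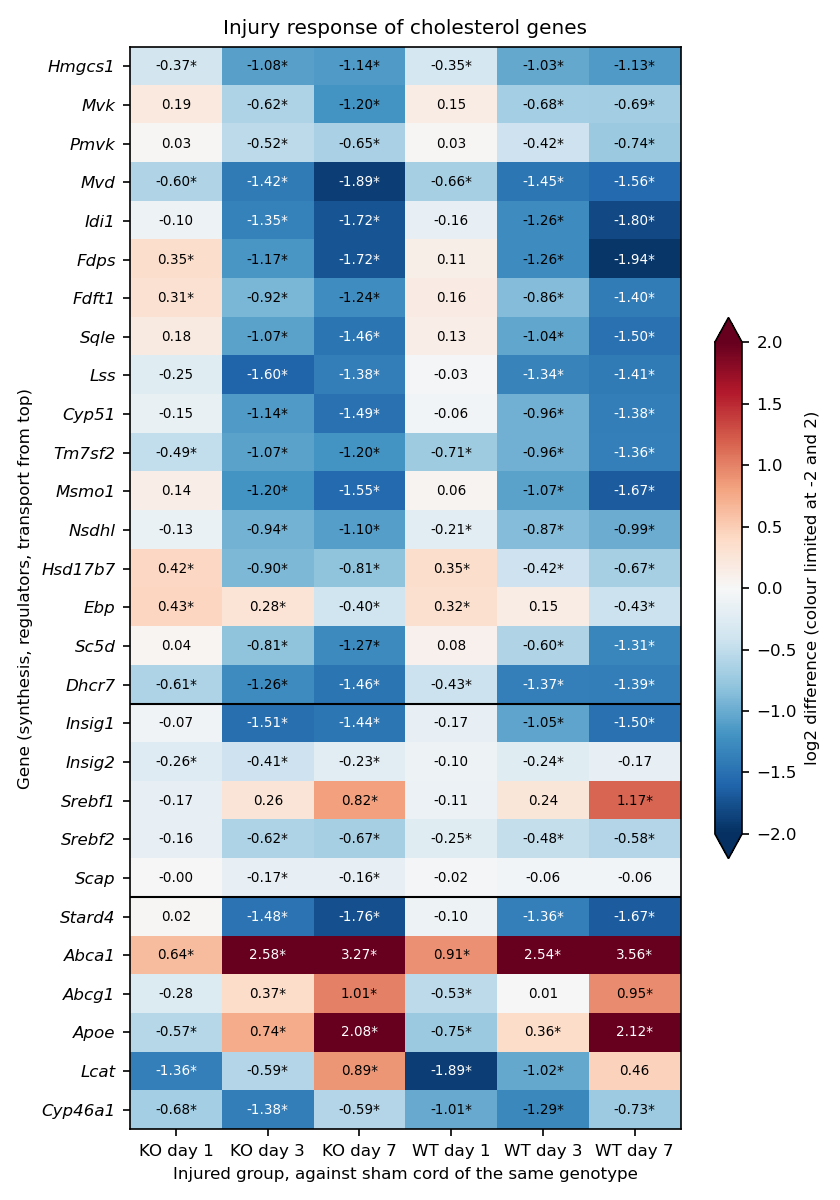
Log2 difference of each of the 28 tested cholesterol genes (rows) between an injured group and the sham group of the same genotype (columns, KO left), with an asterisk where limma's adjusted p was at most 0.05. The 17 enzymes in the upper block are blue in both day 7 columns, between -1.94 and -0.40, while Abca1 reaches 3.27 in KO and 3.56 in WT cord.

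The 3 enzymes with the largest decreases at day 7 were Mvd, Fdps and Idi1 in KO cord, and Fdps, Idi1 and Msmo1 in WT cord. Fdps, farnesyl diphosphate synthase, which makes the last isoprenoid before the path to squalene, read 9.90, 10.02, 10.01 and 9.96 (sham), 10.24, 10.36, 10.48 and 10.21 (day 1), 8.56, 8.85, 8.85, 8.92 and 8.84 (day 3) and 8.03, 8.18, 8.46 and 8.35 (day 7) in KO cord. Fdps in WT cord read 10.10, 9.93, 10.43 and 10.48 (sham), 10.45, 10.29, 10.45, 10.43 and 10.13 (day 1), 8.94, 8.61, 9.21 and 9.13 (day 3) and 8.44, 8.56, 7.86 and 8.34 (day 7). Every day 3 and day 7 array was thus below every sham and day 1 array of either genotype. At day 7 Fdps was 3.29-fold lower than sham in KO cord (-1.72 ± 0.14, adjusted p = 2.30e-11) and 3.83-fold lower in WT cord (-1.94 ± 0.14, adjusted p = 1.52e-12). It was the synthesis enzyme that fell most between day 1 and day 3 (-1.45 ± 0.09, mean over genotypes).

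Idi1, which isomerises isopentenyl diphosphate, read 12.00, 12.11, 12.18 and 11.96 (sham), 12.01, 11.86, 12.01 and 11.97 (day 1), 10.73, 10.73, 10.50, 10.59 and 11.04 (day 3) and 10.29, 10.31, 10.47 and 10.32 (day 7) in KO cord. Idi1 in WT cord read 12.09, 11.99, 12.24 and 12.40 (sham), 12.16, 11.99, 12.02, 12.05 and 11.89 (day 1), 11.02, 10.42, 11.21 and 11.02 (day 3) and 10.58, 10.69, 10.22 and 10.02 (day 7). Day 1 arrays overlapped the sham arrays, and day 3 and day 7 arrays lay below all of them. The decrease at day 7 was 3.29-fold in KO and 3.48-fold in WT cord. Mvd, which decarboxylates mevalonate diphosphate and was matched by a probe set shared between transcripts, was 3.70-fold lower in KO cord (-1.89 ± 0.17) and 2.94-fold lower in WT cord (-1.56 ± 0.17) at day 7.

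Hmgcs1, the synthase that makes HMG-CoA at the head of the pathway, read 14.14, 14.29, 14.34 and 14.24 (sham), 13.90, 13.86, 13.88 and 13.90 (day 1), 13.24, 13.27, 12.92, 12.93 and 13.52 (day 3) and 13.14, 13.01, 13.11 and 13.19 (day 7) in KO cord. Hmgcs1 in WT cord read 14.30, 14.26, 14.28 and 14.56 (sham), 13.91, 14.05, 14.15, 14.04 and 13.87 (day 1), 13.44, 12.84, 13.60 and 13.41 (day 3) and 13.29, 13.39, 13.13 and 13.08 (day 7). At day 1 it was already below all sham arrays of its genotype, by 0.37 ± 0.12 in KO cord and 0.35 ± 0.12 in WT cord on the log2 scale. Its probe set, and those chosen for Fdft1 and Hsd17b7, are of a kind that may also bind related transcripts. A dim probe set of the same gene gave the opposite sign at day 1 (0.52 in KO and 0.23 in WT cord) without passing the test.

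Pmvk, the second of the kinases that phosphorylate mevalonate in turn, was 0.65 ± 0.07 lower at day 7 in KO cord and 0.74 ± 0.07 lower in WT cord on the log2 scale. Mvk, the first, was 1.20 ± 0.20 lower in KO cord and 0.69 ± 0.20 lower in WT cord. The genotype difference between these responses of Mvk was -0.52, with a 95% interval from -1.08 to 0.05 and an adjusted p of 1.00.

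Of the enzymes of squalene and the first sterol, Fdft1, squalene synthase, was 2.36-fold lower at day 7 in KO and 2.65-fold lower in WT cord. Sqle, squalene epoxidase, read 10.49, 10.77, 10.71 and 10.61 (sham), 10.85, 10.80, 10.86 and 10.77 (day 1), 9.36, 9.69, 9.45, 9.55 and 9.83 (day 3) and 9.17, 9.16, 9.20 and 9.21 (day 7) in KO cord. Sqle in WT cord read 10.64, 10.57, 10.90 and 10.98 (sham), 10.95, 10.85, 10.97, 11.02 and 10.72 (day 1), 9.79, 9.28, 10.04 and 9.82 (day 3) and 9.42, 9.54, 9.12 and 9.02 (day 7). No array of day 3 or day 7 reached the lowest sham array of its genotype. Lss, which closes the sterol ring, had its lowest KO mean at day 3 (7.98 ± 0.37, n = 5) and read 8.21 ± 0.12 (n = 4) at day 7. KO day 3 replicates 3 and 4, which stood apart, read 7.65 and 7.54, and the other KO day 3 arrays 8.15 to 8.39. The change of Lss between day 3 and day 7, 0.08 ± 0.10 over both genotypes, did not pass.

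Of the enzymes that trim lanosterol, Cyp51, the sterol demethylase, was 2.81-fold lower at day 7 in KO and 2.60-fold lower in WT cord, and Msmo1, the methylsterol oxidase, was 2.92-fold and 3.17-fold lower in KO and WT cord. Nsdhl, a dehydrogenase of the same demethylation steps, was 2.15-fold lower in KO and 1.99-fold lower in WT cord. Hsd17b7, its partner reductase, was 0.81 ± 0.12 lower in KO cord and 0.67 ± 0.12 lower in WT cord at day 7 on the log2 scale. Tm7sf2, a sterol reductase, was 1.20 ± 0.15 lower in KO cord and 1.36 ± 0.15 lower in WT cord. The late enzymes Sc5d and Dhcr7, which desaturate and then reduce the last precursors, were 2.41-fold and 2.75-fold lower in KO cord, and 2.48-fold and 2.62-fold lower in WT cord.

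Ebp, the sterol isomerase, was the 1 enzyme that was not lower at day 3. Ebp read 8.96, 9.13, 9.11 and 8.99 (sham), 9.44, 9.53, 9.60 and 9.31 (day 1), 9.24, 9.39, 9.33, 9.50 and 9.20 (day 3) and 8.57, 8.71, 8.61 and 8.70 (day 7) in KO cord. Ebp in WT cord read 9.22, 8.98, 9.24 and 9.39 (sham), 9.57, 9.51, 9.56, 9.65 and 9.38 (day 1), 9.33, 9.29, 9.38 and 9.44 (day 3) and 8.91, 8.71, 8.56 and 8.94 (day 7). KO arrays at days 1 and 3 all lay above the KO sham arrays, and in both genotypes the day 7 arrays lay below all sham arrays of that genotype. Ebp rose at day 1 by 0.43 ± 0.09 in KO cord (adjusted p = 0.000225) and by 0.32 ± 0.08 in WT cord (adjusted p = 0.00158), with 1 WT day 1 array inside the sham range. Its largest decrease came between day 3 and day 7 (-0.63 ± 0.06), against -0.15 ± 0.06 between day 1 and day 3.

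**Figure D2:**
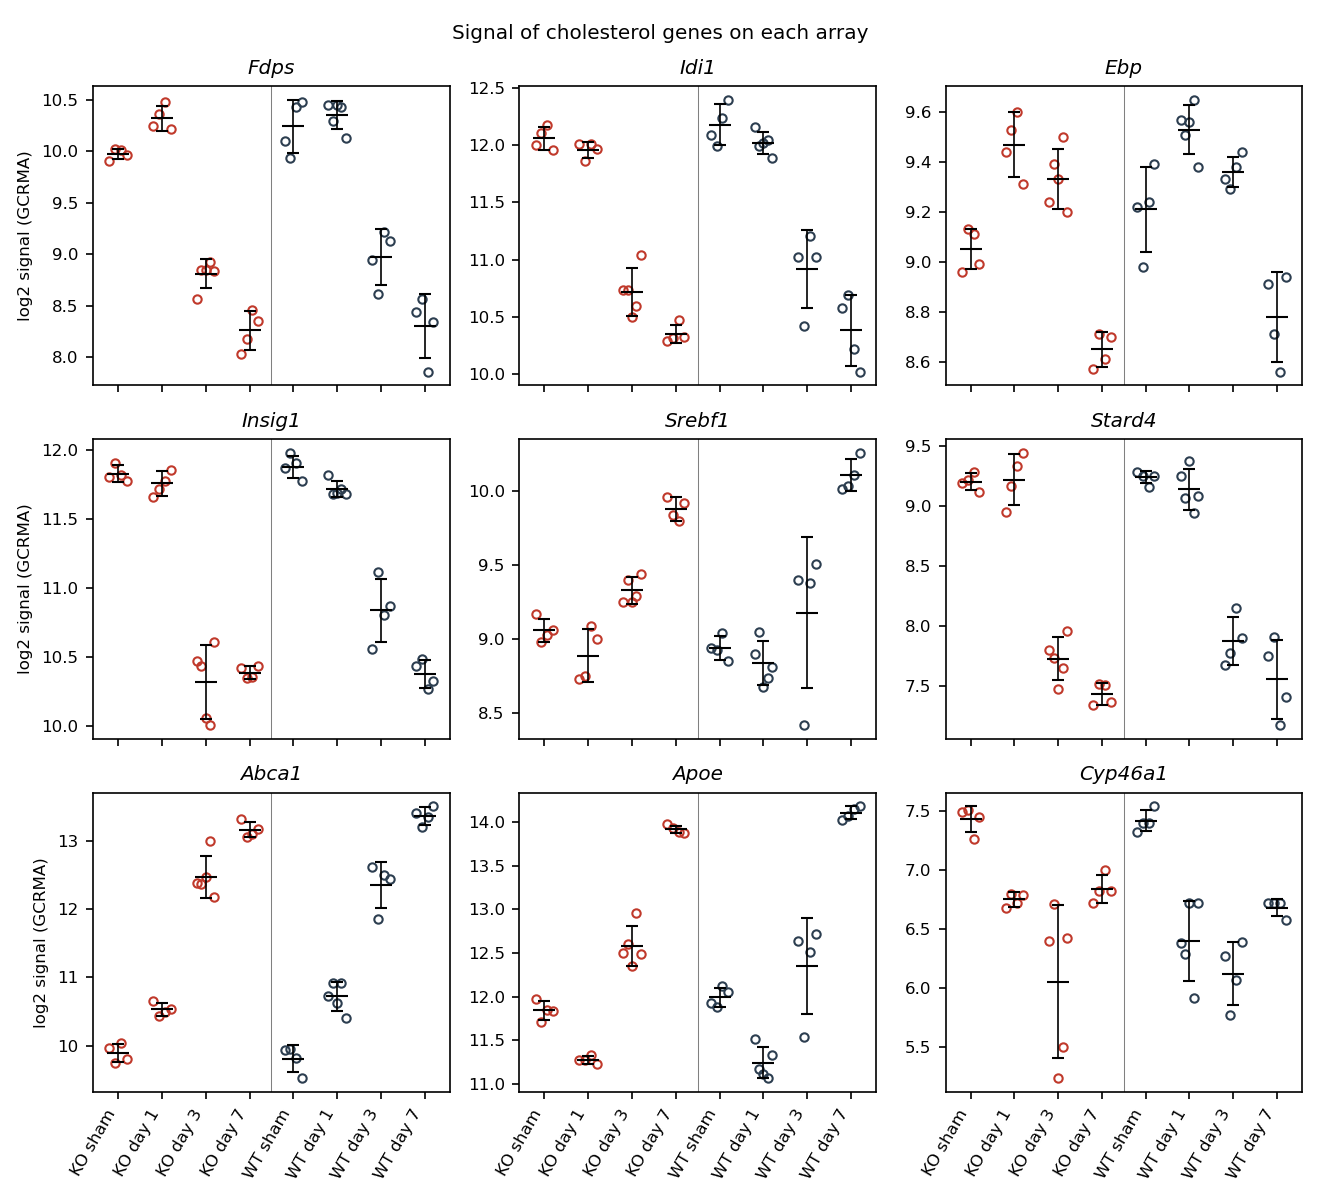
Log2 signal of 9 cholesterol genes on each array (open circles), with the group mean and SD (black), KO groups left of WT groups and times in order. Fdps, Idi1, Insig1 and Stard4 drop between day 1 and day 3, Abca1 and Apoe climb to day 7, and 1 WT day 3 array lies apart for Srebf1 (8.42) and Apoe (11.53).

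At day 1 the synthesis enzymes moved in both directions. In KO cord 4 rose (Ebp, Hsd17b7, Fdps and Fdft1, with differences of 0.31 to 0.43) and 4 fell (Hmgcs1, Mvd, Tm7sf2 and Dhcr7, with differences of -0.61 to -0.37), while 9 did not pass; of all genes 23.7% rose and 27.3% fell. In WT cord 2 rose (Ebp and Hsd17b7) and 5 fell (Hmgcs1, Mvd, Tm7sf2, Dhcr7 and Nsdhl), while 10 did not pass; of all genes 27.1% rose and 32.5% fell. The median over the 17 was 0.03 in either genotype. Over all 28 cholesterol genes, 13 were called in KO cord, against 51.1% of all genes tested, and 13 in WT cord, against 59.5%. The call of Fdps in KO cord (0.35 ± 0.14, adjusted p = 0.0355) was lost without the array labelled KO sham replicate 2, and 12 of the 28 were then called in KO cord.

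At day 3, 16 of the 17 enzymes were lower than sham in either genotype, all but Ebp. The share of all genes tested that were lower was 38.8% in KO and 37.4% in WT cord. The medians over the 17 were -1.07 in KO and -0.96 in WT cord, and -0.06 over all genes tested in each. Ebp was 0.28 ± 0.08 higher in KO cord (adjusted p = 0.0032) and differed by 0.15 ± 0.09 in WT cord (adjusted p = 0.123). Of all 28 cholesterol genes, 27 were called in KO cord (4 higher, 23 lower), against 69.7% of all genes (30.9% higher), and 24 in WT cord (2 higher, 22 lower), against 66.9% (29.5% higher). Without the 3 day 3 arrays that stood apart, 26 were called in each genotype, and without the array labelled KO sham replicate 2 it was 26 in KO cord.

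As the mean over both genotypes, all 17 enzymes fell between day 1 and day 3, with a median of -0.82, and 34.3% of all genes tested fell. All 28 cholesterol genes were called in this comparison (5 higher and 23 lower), against 60.4% of all genes either way and 26.1% higher; without the 3 day 3 arrays it was 25. Between day 3 and day 7, 11 enzymes fell further, with a median over the 17 of -0.30, and 21.3% of all genes tested fell. Without the 3 day 3 arrays that stood apart, 14 enzymes fell in this step. Those that did not pass with all arrays were Hmgcs1, Mvk, Lss, Nsdhl, Hsd17b7 and Dhcr7. In this step 19 of the 28 cholesterol genes were called (6 higher, 13 lower), against 46.2% of all genes and 24.8% higher, and 22 without the 3 arrays. The calls of Mvd and Tm7sf2 in this step were each lost under more than 10 of the alternatives tried.

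**Figure D3:**
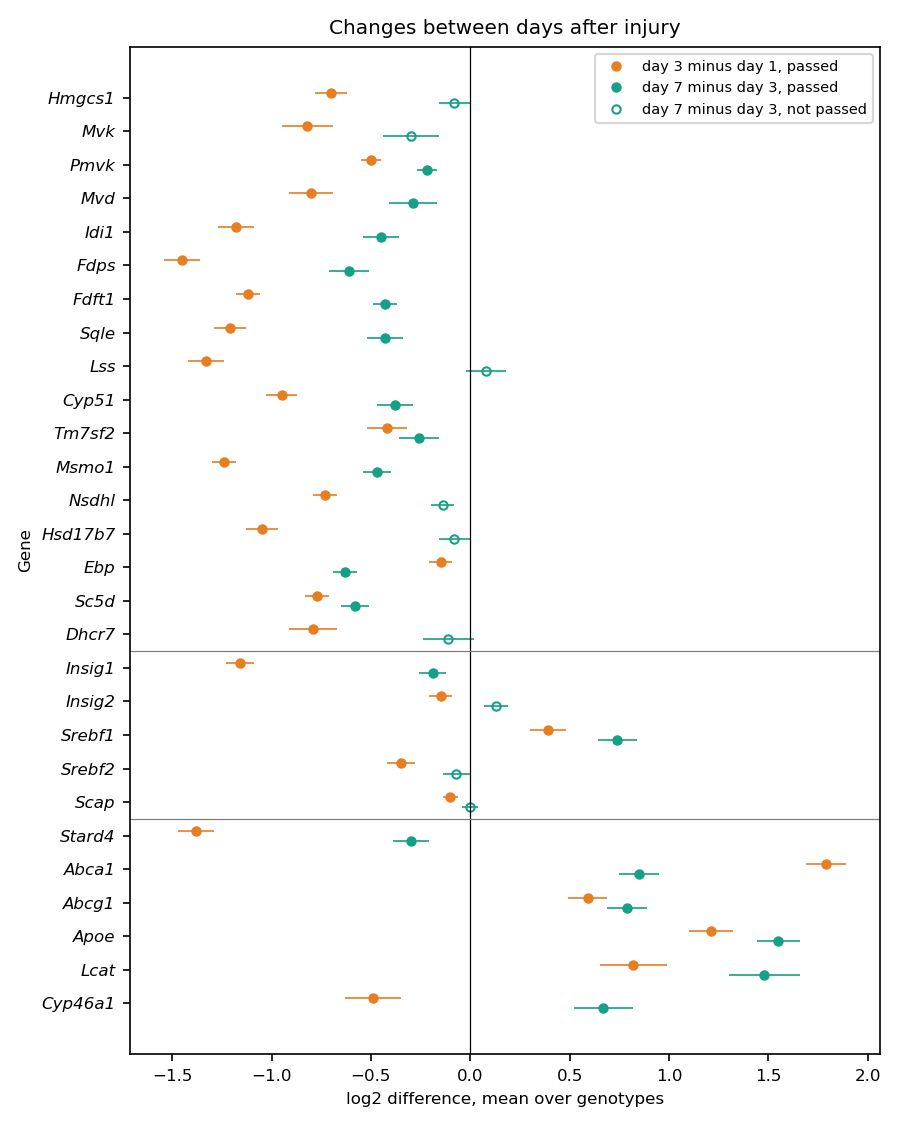
Log2 difference between day 3 and day 1 (orange) and between day 7 and day 3 (green) for each of the 28 genes, as the mean over genotypes with its standard error; filled points passed the test and open points did not. The synthesis enzymes lie further left in orange than in green, except Ebp (-0.15 and -0.63), while Srebf1, Abcg1, Apoe and Lcat have the larger rise in green.

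Among the regulators, Insig1, itself a known SREBP target, fell with the enzymes. It read 11.81, 11.91, 11.82 and 11.78 (sham), 11.66, 11.72, 11.78 and 11.86 (day 1), 10.47, 10.44, 10.06, 10.01 and 10.61 (day 3) and 10.42, 10.35, 10.36 and 10.44 (day 7) in KO cord. Insig1 in WT cord read 11.87, 11.98, 11.91 and 11.78 (sham), 11.82, 11.68, 11.69, 11.72 and 11.68 (day 1), 10.56, 11.12, 10.81 and 10.87 (day 3) and 10.44, 10.49, 10.27 and 10.33 (day 7). All day 3 and day 7 arrays lay below all sham and day 1 arrays. It was 2.71-fold lower at day 7 in KO and 2.83-fold lower in WT cord.

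Srebf2, which encodes SREBP-2, the factor known mainly for the synthesis genes, was 0.62 ± 0.10 lower at day 3 in KO cord and 0.48 ± 0.11 lower in WT cord on the log2 scale. At day 7 it was 0.67 ± 0.11 lower in KO and 0.58 ± 0.11 lower in WT cord. At day 1 in WT cord it was 0.25 ± 0.10 lower (adjusted p = 0.0374), while its other probe set passed in the opposite direction (0.34).

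Srebf1, which encodes SREBP-1, known mainly for fatty acid genes and as an LXR target, rose at day 7. Srebf1 read 9.17, 8.98, 9.03 and 9.06 (sham), 8.73, 8.75, 9.09 and 9.00 (day 1), 9.25, 9.40, 9.25, 9.29 and 9.44 (day 3) and 9.96, 9.84, 9.80 and 9.92 (day 7) in KO cord. Srebf1 in WT cord read 8.94, 8.93, 9.04 and 8.85 (sham), 8.90, 9.05, 8.68, 8.74 and 8.81 (day 1), 9.40, 8.42, 9.38 and 9.51 (day 3) and 10.02, 10.04, 10.11 and 10.26 (day 7). The day 7 arrays lay above all others of their genotype. At day 3 the difference was 0.26 ± 0.13 in KO cord (adjusted p = 0.0804) and 0.24 ± 0.14 in WT cord (adjusted p = 0.142). The difference from sham at day 7 was 0.82 ± 0.14 in KO cord (adjusted p = 2.43e-05) and 1.17 ± 0.14 in WT cord (adjusted p = 7.55e-08), and the genotype difference between them was -0.35, with a 95% interval from -0.76 to 0.06.

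Insig2, the second Insig, and Scap, the escort, moved little. Insig2 was 0.41 ± 0.08 lower at day 3 in KO cord and 0.24 ± 0.08 lower in WT cord. Scap was 0.17 ± 0.06 lower at day 3 in KO cord (adjusted p = 0.0166), and its difference in WT cord was -0.06 ± 0.06 (adjusted p = 0.421). Over the 5 regulators, 4 fell and 0 rose at day 3 in KO cord, and 3 fell and 0 rose in WT cord, beside 38.8% of all genes lower in KO and 37.4% in WT cord. Without the 3 day 3 arrays that stood apart, Scap did not pass in KO cord (-0.12, adjusted p = 0.0819) and Srebf1 passed, so that 3 fell and 1 rose in each genotype. At day 7, 4 fell and 1 rose in KO cord, and 2 fell and 1 rose in WT cord, where 31.0% and 33.3% of all genes were lower and 23.5% and 25.8% higher; counts so close to these shares, as in WT cord, say nothing of the regulators as a group. Without the array labelled KO sham replicate 2, Scap did not pass at day 7 in KO cord (-0.15, adjusted p = 0.0731), and 3 fell.

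The 6 transport genes did not move together. Stard4, a soluble carrier that moves sterol between membranes and a known SREBP target, followed the enzymes. It read 9.19, 9.22, 9.28 and 9.12 (sham), 8.95, 9.17, 9.33 and 9.44 (day 1), 7.80, 7.74, 7.48, 7.65 and 7.96 (day 3) and 7.35, 7.52, 7.51 and 7.37 (day 7) in KO cord. Stard4 in WT cord read 9.28, 9.25, 9.16 and 9.25 (sham), 9.25, 9.07, 9.37, 8.94 and 9.08 (day 1), 7.68, 7.78, 8.15 and 7.90 (day 3) and 7.75, 7.91, 7.18 and 7.41 (day 7). The groups fall into a high pair (sham and day 1) and a low pair (days 3 and 7) with no overlap. At day 7 Stard4 was 3.40-fold lower in KO cord (-1.76 ± 0.13, adjusted p = 2.28e-12) and 3.19-fold lower in WT cord (-1.67 ± 0.13, adjusted p = 6.49e-12).

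Abca1, the transporter that loads cholesterol onto apolipoproteins at the cell surface, rose at every time. It read 9.97, 9.75, 10.04 and 9.81 (sham), 10.65, 10.44, 10.49 and 10.54 (day 1), 12.38, 12.36, 12.47, 12.99 and 12.17 (day 3) and 13.32, 13.06, 13.10 and 13.17 (day 7) in KO cord. Abca1 in WT cord read 9.94, 9.95, 9.82 and 9.52 (sham), 10.72, 10.92, 10.62, 10.91 and 10.41 (day 1), 12.61, 11.86, 12.50 and 12.44 (day 3) and 13.40, 13.20, 13.35 and 13.50 (day 7). No 2 of the 4 times overlapped in either genotype. With the mean of all probe sets of Abca1, its day 1 call in KO cord was lost. Abca1 was 9.65-fold higher than sham at day 7 in KO cord (3.27 ± 0.15, adjusted p = 6.12e-17) and 11.8-fold higher in WT cord (3.56 ± 0.15, adjusted p = 1.26e-17).

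Apoe, the main apolipoprotein of the nervous system, fell first and rose later. Apoe read 11.97, 11.71, 11.85 and 11.83 (sham), 11.27, 11.27, 11.33 and 11.22 (day 1), 12.50, 12.60, 12.35, 12.96 and 12.49 (day 3) and 13.98, 13.93, 13.89 and 13.88 (day 7) in KO cord. Apoe in WT cord read 11.92, 11.88, 12.12 and 12.05 (sham), 11.51, 11.17, 11.11, 11.07 and 11.33 (day 1), 12.64, 11.53, 12.51 and 12.72 (day 3) and 14.02, 14.07, 14.15 and 14.18 (day 7). The WT day 3 group spans the sham range because of 1 array. At day 1 Apoe was 1.48-fold lower in KO and 1.69-fold lower in WT cord, and at day 7 it was 4.24-fold higher in KO and 4.33-fold higher in WT cord. The WT call at day 3 (0.36 ± 0.16, adjusted p = 0.0468) was lost under 26 of the alternatives tried, but was 0.63 without the 3 day 3 arrays that stood apart (adjusted p = 2.48e-07), while the KO value was 0.74 ± 0.15 (adjusted p = 7.77e-05).

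Abcg1, which passes cholesterol to mature lipoproteins, had a similar shape with a smaller range. It was 0.53 ± 0.14 lower at day 1 in WT cord on the log2 scale and differed by -0.28 ± 0.15 in KO cord (adjusted p = 0.118). At day 3 its difference from sham in WT cord was 0.01 ± 0.15 (adjusted p = 0.969). There WT day 3 replicate 2, which stood apart, read 8.90, and the other arrays of the group 9.78 to 9.94. At day 7 Abcg1 was 2.01-fold higher than sham in KO and 1.93-fold higher in WT cord. Its day 3 call in KO cord (0.37 ± 0.14) has a second, dimmer probe set that passed in the opposite direction (-0.32). That call was lost under 4 alternatives, among them the fit without the array labelled KO sham replicate 2 (0.34, adjusted p = 0.0575).

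Lcat, the enzyme that esterifies cholesterol in lipoproteins, read 6.94, 6.38, 6.29 and 6.66 (sham), 5.21, 5.03, 5.11 and 5.47 (day 1), 6.24, 5.96, 5.48, 5.96 and 6.23 (day 3) and 7.53, 7.59, 7.49 and 7.24 (day 7) in KO cord. Lcat in WT cord read 6.67, 6.34, 7.35 and 7.26 (sham), 4.72, 5.58, 4.54, 5.11 and 5.12 (day 1), 6.26, 4.87, 6.04 and 6.38 (day 3) and 7.43, 7.59, 7.34 and 7.10 (day 7). Day 1 arrays lay below all sham arrays of their genotype, 1 WT day 3 array lay among the WT day 1 values, and the KO day 7 arrays lay above all KO sham arrays. Lcat was 2.57-fold lower at day 1 in KO and 3.72-fold lower in WT cord. At day 7 it was 0.89 ± 0.26 higher in KO cord (adjusted p = 0.00485), and its difference in WT cord was 0.46 ± 0.26 (adjusted p = 0.13).

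Cyp46a1, a neuronal enzyme that turns cholesterol into an oxysterol able to leave the tissue, was lower at every time. It read 7.49, 7.51, 7.26 and 7.45 (sham), 6.68, 6.80, 6.72 and 6.79 (day 1), 6.40, 6.71, 5.23, 5.50 and 6.42 (day 3) and 6.72, 6.82, 7.00 and 6.82 (day 7) in KO cord. Cyp46a1 in WT cord read 7.32, 7.40, 7.40 and 7.54 (sham), 6.38, 6.29, 6.72, 5.91 and 6.72 (day 1), 6.27, 5.77, 6.07 and 6.39 (day 3) and 6.72, 6.72, 6.72 and 6.58 (day 7). No injured array reached the lowest sham array. The value 6.72 recurred on arrays of KO day 1, KO day 7, WT day 1 and WT day 7, while other arrays read lower. Why it recurred was not tested, and it limits what the differences at days 1 and 7 can say. The lowest group means were at day 3, where the difference was -1.38 ± 0.20 in KO and -1.29 ± 0.21 in WT cord. Between day 3 and day 7 Cyp46a1 rose by 0.67 ± 0.15 (adjusted p = 0.000504), and by 0.38 without the 3 day 3 arrays that stood apart (adjusted p = 0.00179).

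Set beside each other as class means, the 17 synthesis enzymes changed by -0.04, -0.99 and -1.28 at days 1, 3 and 7 in KO cord, and by -0.07, -0.91 and -1.26 in WT cord, each against the sham mean of the genotype. The mean of the 6 transport genes changed by -0.37, 0.04 and 0.82 in KO cord and by -0.56, -0.13 and 0.78 in WT cord; without the 3 day 3 arrays that stood apart it was 0.12 at day 3 in KO and 0.07 in WT cord. Its members went different ways, with Stard4 and Cyp46a1 lower at day 7. Within the 6, the mean of Abca1, Abcg1 and Apoe, chosen after their values were seen, changed by -0.07, 1.23 and 2.12 in KO cord and by -0.12, 0.97 and 2.21 in WT cord. At day 7 the enzymes' mean ran from -1.39 to -1.21 over the KO arrays and from -1.45 to -1.09 over the WT arrays, and the transport mean from 0.78 to 0.84 and from 0.69 to 0.81. At day 7, 28 of the 28 cholesterol genes were called in KO cord (5 higher, 23 lower), against 54.5% of all genes, and 25 in WT cord (4 higher, 21 lower), against 59.1%. Without the array labelled KO sham replicate 2, the KO count was 27.

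**Figure D4:**
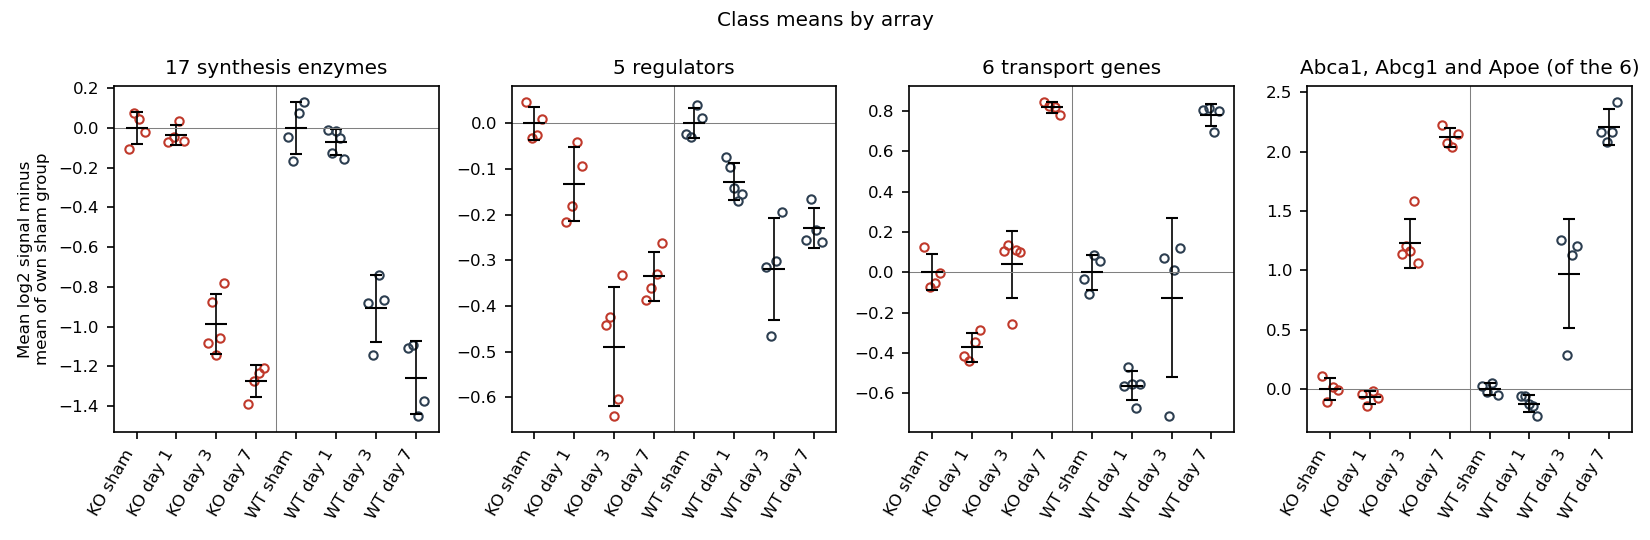
Mean log2 signal of 17 synthesis enzymes, 5 regulators, 6 transport genes, and 3 of those 6 (Abca1, Abcg1 and Apoe) on each array, minus the mean of the sham group of the same genotype (open circles, KO left), with the group mean and SD in black. The enzymes' mean is near 0 at day 1 and lies between -1.45 and -1.09 at day 7, where the mean of the 6 transport genes lies between 0.69 and 0.84 and that of the 3 chosen after their values were seen between 2.04 and 2.42. The vertical scales of the panels differ.

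In tissue of mixed cells, fewer cells of a type and less RNA per cell cannot be told apart. The median of 9 oligodendrocyte markers' differences at day 7 was -0.33 in KO and -0.37 in WT cord. In each genotype 5 were lower and 0 higher, beside 31.0% of all genes lower in KO and 33.3% in WT cord. Without the array labelled KO sham replicate 2, 4 of the 9 markers were lower in KO cord. Their summed log2 level ran from 119.77 to 120.84 in KO cord at day 7, against 122.82 to 124.18 in KO sham cord, and from 118.88 to 122.55 in WT cord at day 7, against 123.13 to 125.53 in WT sham cord. At day 3, 8 of the 9 were lower in each genotype, with medians of -0.49 in KO and -0.42 in WT cord, where 38.8% and 37.4% of all genes were lower. The ninth, Cldn11, a tight junction protein of myelin, was higher in WT cord (0.36 ± 0.11) and did not pass in KO cord. All 10 neuron markers were lower at day 3 in each genotype, and their mean level was 12.62, 12.24, 11.46 and 11.94 in KO cord at sham, day 1, day 3 and day 7, and 12.62, 12.04, 11.69 and 11.83 in WT cord. Like Cyp46a1, they had their lowest mean at day 3 in both genotypes. Without the 3 day 3 arrays that stood apart, the neuron markers' mean at day 3 was 11.85 in KO and 11.76 in WT cord. These are close to the day 7 means of 11.94 and 11.83. Astrocyte markers, 8 genes, had means of 12.37, 12.24, 12.37 and 12.70 in KO cord at the same times. In WT cord their means were 12.39, 12.22, 12.33 and 12.69. The astrocyte mean hides members that went different ways at day 3. There 4 of the 8 were lower and 2 higher in each genotype, with medians of -0.4 in KO and -0.43 in WT cord. Of all genes, 38.8% and 37.4% were lower at day 3, and 30.9% and 29.5% higher. At day 7, 3 of the 8 were higher and 0 lower in each genotype, beside 23.5% and 25.8% of all genes higher. The part of these cell types in the results was not tested.

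Macrophage and phagocyte markers, 10 genes, were higher at days 3 and 7, when Abca1 and Apoe were higher. At day 1, when Apoe was lower, 7 of the 10 markers were higher in KO and 9 in WT cord, beside 23.7% and 27.1% of all genes. Their mean level was 5.81, 7.90, 10.73 and 10.99 in KO cord at sham, day 1, day 3 and day 7, and 6.13, 8.47, 10.13 and 11.17 in WT cord. All 10 were higher at days 3 and 7 in both genotypes, with medians from 3.90 to 4.82. Of all genes, 30.9% were higher at day 3 in KO and 29.5% in WT cord, and 23.5% and 25.8% at day 7. Between day 3 and day 7 their mean level went from 10.73 to 10.99 in KO cord and from 10.13 to 11.17 in WT cord. Apoe went from 12.58 to 13.92 in KO and from 12.35 to 14.11 in WT cord. Single markers changed by -0.45 to 1.98 in this step, as the mean over genotypes. Without the 3 day 3 arrays that stood apart, the markers' mean at day 3 was 10.53 in KO and 10.4 in WT cord. Their summed level ran from 108.90 to 110.99 in KO cord at day 7, against 53.98 to 60.16 in KO sham cord, and from 109.93 to 114.29 in WT cord at day 7, against 60.45 to 61.75 in WT sham cord; none was at the floor on all arrays. WT day 3 replicate 2, low for Apoe, Abcg1 and Srebf1, was the lowest WT day 3 array for these markers as well (9.32, against a group mean of 10.13). It was also the lowest WT day 3 array for oligodendrocyte (13.05), neuron (11.47) and astrocyte markers (11.66), so its low values are not particular to the phagocyte list. The part of macrophages and phagocytes in the result was not tested.

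Skeletal muscle markers, 7 genes, which cord should lack, averaged 7.48 to 10.52 on the KO sham arrays and 3.17 to 8.77 on the WT sham arrays, and up to 13.52 on 1 KO day 3 array. All 7 were lower at days 1 and 7 than at sham in KO cord, beside 27.3% and 31.0% of all genes. In WT cord 0 of 7 were called at either time, beside 59.5% and 59.1% of all genes called either way. Without the array labelled KO sham replicate 2, the KO counts were 5 at day 1 and 6 at day 7. Of 5 Schwann cell and nerve root markers, 3 were analysed here, with Cldn19 at the floor. Their mean was at most 5.36 on any array. The 2 tested both rose in WT cord at each time. In KO cord 2 rose at day 3 and 1 each at days 1 and 7. Of all genes tested, 23.5% to 30.9% rose in these comparisons. In sham cord 1 of the 2 was higher in KO than in WT mice by limma's test (adjusted p = 0.00538), against 0.0584% of all genes. The mean of the 3 markers was 3.84 in KO and 2.75 in WT sham cord, and 2.74 on the array labelled KO sham replicate 2. Of 3 red blood cell markers, 2 were analysed here, with Hba-a1 at the floor. The part of these tissues in the results was not tested.

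**Figure D5:**
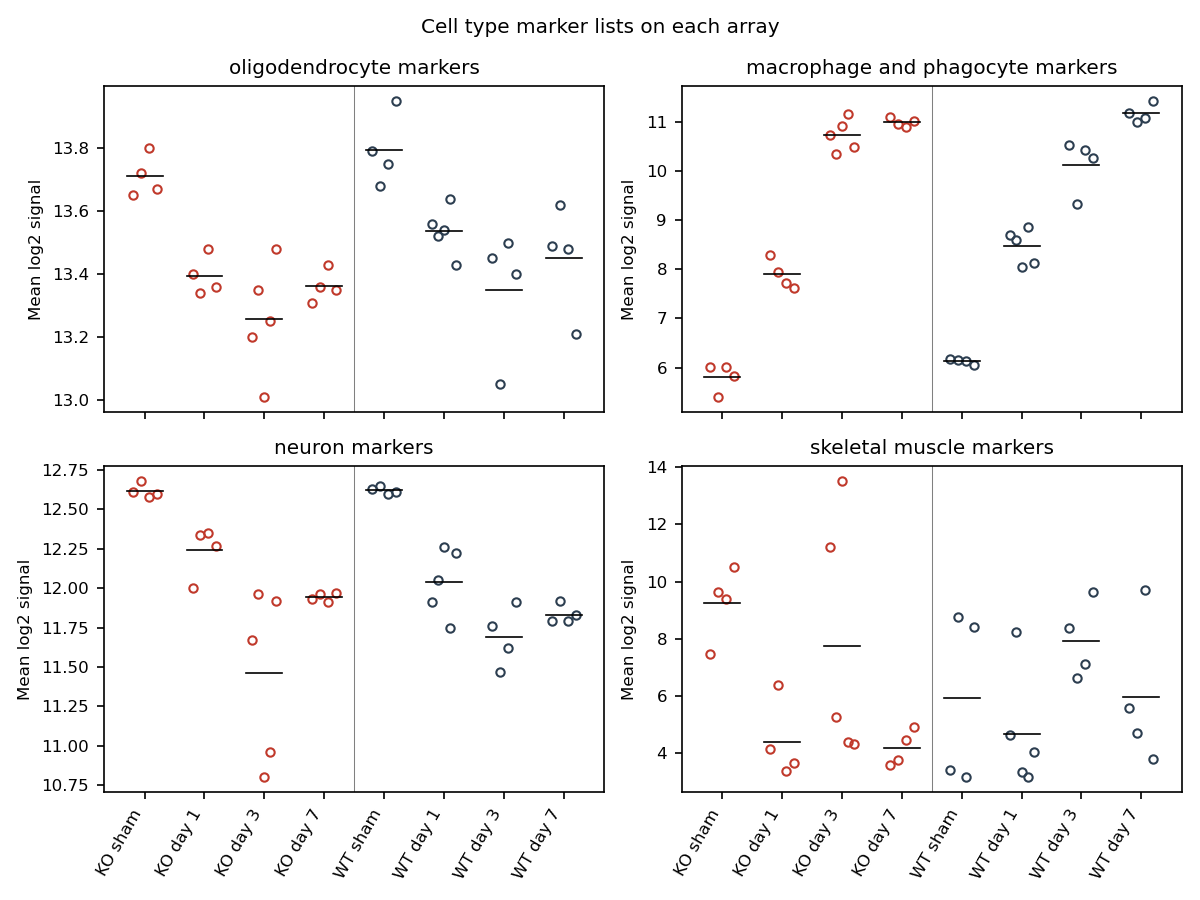
Mean log2 signal of 4 marker lists on each array (open circles, KO left of WT), with the group mean as a black line. Phagocyte markers average 10.99 in KO and 11.17 in WT cord at day 7, against 5.81 in KO and 6.13 in WT sham cord, while oligodendrocyte markers stay between group means of 13.26 and 13.79.

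Between genotypes 1 cholesterol gene passed the test, Insig1 at day 3. In sham cord 0 of 28 passed limma's test for KO against WT, and 0 had an unadjusted p under 0.05, against 4.10% of all genes; of all genes tested 0.0667% passed (0.0584% higher and 0.00834% lower). All 17 enzymes were lower in KO than in WT sham cord, with a median of -0.13 and a range from -0.26 to -0.04, against a median of 0.01 over all genes. The largest of these were Fdps (-0.26, 95% interval from -0.55 to 0.02) and Tm7sf2 (-0.26, from -0.56 to 0.04). These 17 differences share the same 8 arrays and are not independent. Without the array labelled KO sham replicate 2, the count passing in sham cord was 0 as well, and 1 had an unadjusted p under 0.05.

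At day 1, 0 of 28 passed and 2 had an unadjusted p under 0.05 (Lss and Sc5d), against 9.70% of all genes, with 0.859% of all genes passing (0.192% higher and 0.667% lower). At day 7, 0 of 28 passed and 3 had an unadjusted p under 0.05 (Mvk, Mvd and Nsdhl), against 4.80% of all genes, with 0.0334% of all genes passing (0.0167% higher and 0.0167% lower). The largest of these differences was that of Mvk at day 7 (-0.65, 95% interval from -1.05 to -0.25, adjusted p = 0.676). For Abca1 the interval of the difference at day 7 ran from -0.50 to 0.11.

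At day 3 Insig1 was the 1 cholesterol gene to pass, 0.52 lower in KO than in WT cord on the log2 scale (95% interval from -0.72 to -0.32, adjusted p = 0.0423), with 0.0334% of all genes passing (0.0167% higher and 0.0167% lower). Its means were 10.32 ± 0.27 in KO cord (SD, n = 5) and 10.84 ± 0.23 in WT cord (SD, n = 4), and their arrays, listed above, overlap. The 2 lowest KO arrays and the highest WT array are the 3 that stood apart at day 3, and without them 0 of 28 genes passed. Over the 17 enzymes the median at day 3 was -0.17, no difference was above 0, and 7 had an unadjusted p under 0.05, against 11.5% of all genes (5 of the 17 without the 3 arrays), with Hsd17b7 (-0.53) and Sc5d (-0.40) nearest to passing (adjusted p = 0.0994 for both). Hsd17b7 read 10.06 on WT day 3 replicate 2, against 9.11 to 9.47 on the other WT day 3 arrays.

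The genotype difference in the injury response, which asks whether KO cord responded otherwise than WT cord, passed limma's test for 0 of 28 genes at days 1, 3 and 7. Of all genes, 0.142%, 0.00% and 0.00834% passed. At unadjusted p under 0.05 the counts of cholesterol genes were 0, 2 and 0 of 28, beside 6.34%, 7.00% and 3.29% of all genes. The 2 at day 3 are thus close to that share, and without the 3 day 3 arrays there were 0. The 2 were Insig1 (-0.46, 95% interval from -0.76 to -0.17) and Hsd17b7 (-0.48, from -0.82 to -0.14) at day 3. For Fdps at day 7 the interval ran from -0.18 to 0.62, for Idi1 from -0.31 to 0.48, for Abca1 from -0.71 to 0.14 and for Apoe from -0.49 to 0.42, so differences of these sizes cannot be told from 0 with these arrays.

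Other genes of lipid metabolism were read as lists. Of 14 fatty acid synthesis genes, which SREBP factors are also known to activate, 11 fell and 2 rose at day 3 in KO cord, and 11 fell and 2 rose in WT cord, where 38.8% and 37.4% of all genes fell. At day 7, 9 fell and 2 rose in KO cord, and 8 fell and 2 rose in WT cord, where 31.0% and 33.3% of all genes fell. Without the array labelled KO sham replicate 2, 7 fell and 1 rose at day 7 in KO cord. Their median at day 7 was -0.29 in KO and -0.26 in WT cord. The desaturase Scd1 was 1.49-fold lower at day 7 in KO and 1.45-fold lower in WT cord, and Scd2, its close relative, 1.22-fold and 1.20-fold lower. Fads1, a desaturase of polyunsaturated fatty acids, was 0.79 ± 0.11 lower at day 3 in KO cord and 0.66 ± 0.11 lower in WT cord, and at day 7 differed by -0.22 ± 0.11 and -0.18 ± 0.11 without passing.

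Of 11 genes of lipoprotein uptake and lysosomal cholesterol handling, 8 rose and 2 fell at day 7 in KO cord, and 8 rose and 2 fell in WT cord, with medians of 0.98 and 1.10. Of all genes tested 23.5% rose at day 7 in KO cord and 25.8% in WT cord. Without the array labelled KO sham replicate 2, 7 rose in KO cord. Lrp1, an endocytic receptor for Apoe-bearing particles, was 1.98-fold higher at day 7 in KO and 2.15-fold higher in WT cord. Npc2, which hands cholesterol out of the lysosome, did not pass at day 1 (-0.04 ± 0.08 in KO and -0.05 ± 0.08 in WT cord) and was 2.17-fold higher in KO and 2.14-fold higher in WT cord at day 7. Msr1, a scavenger receptor of macrophages, averaged 2.56 in KO and 2.80 in WT sham cord, below log2 4. With sham set to log2 4, it was at least 34.5-fold higher at day 7 in KO and at least 33.5-fold higher in WT cord.

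Of 10 genes of lipid droplets, lipoproteins and oxysterols, 5 rose and 1 fell at day 7 in KO cord, and 7 rose and 2 fell in WT cord, beside the 23.5% and 25.8% of all genes that rose and the 31.0% and 33.3% that fell. Plin2, the coat protein of lipid droplets, averaged 9.49 ± 0.29, 11.62 ± 0.65 and 11.61 ± 0.09 at days 1, 3 and 7 in KO cord, against 7.48 ± 0.03 at sham, and 10.09 ± 0.21, 11.34 ± 0.24 and 11.49 ± 0.43 in WT cord, against 7.72 ± 0.20 at sham. It was thus 17.5-fold higher at day 7 in KO and 13.7-fold higher in WT cord. Ch25h, which turns cholesterol into an oxysterol, averaged 2.62 in KO and 2.54 in WT sham cord, below log2 4. With sham set to log2 4, it was at least 31.3-fold higher in KO and at least 33.1-fold higher in WT cord at day 1, and at least 40.3-fold and 31.6-fold higher at day 7. Lpl, the lipase that frees fatty acids from lipoproteins, was 15.7-fold higher at day 7 in KO and 23.0-fold higher in WT cord.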

How the data were processed

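Spinal cord RNA of 34 samples in 8 groups of genotype and time was measured on 1 Affymetrix array each. Log2 values of 45101 probe sets were used as deposited; the submitters' processing notes name GCRMA, without a version, as the authors' tool. GCRMA corrects background, normalises between arrays and summarises probes, so a change shared by all genes would be removed, and dim probe sets sit near a floor of 2.17.

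The platform annotation, which can be old, gave 1 gene symbol for 34945 probe sets, several for 932 and none for 9160, beside 64 controls. For 34754, the symbol was updated by Entrez ID through a RefSeq table of GRCm38.p6. Each of 18193 genes took its probe set with the highest mean, and the 11993 that passed log2 4 on 4 or more arrays went into R 4.3.3 and limma 3.58.1 (lmFit and eBayes, 8 group means in 1 fit, Benjamini-Hochberg over all genes of a comparison, threshold 0.05) in 15 comparisons. The script was tested on simulated data. No 2 arrays held identical values, and the number of arrays limits the precision.

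All cholesterol genes could be named, and up to 3 genes of each other list, those with the smallest p in the injury comparisons, each once; 5 genes most like each of 2 class means were also named, the second mean being that of Abca1 and Abcg1, since Soat1 was not analysed here. The members and lists were chosen with earlier results of these data known. Alternatives were the mean of all probe sets of a gene, no filter and a stricter one (log2 6), centring of arrays, a floor at 4, fits on only the groups compared, array weights, a variance trend, a replicate block, and each array left out. One more, without 3 day 3 arrays that stand apart, was chosen after seeing the data. No scan date or other batch was in the labels.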

Additional observations from a re-analysis of the deposited data

Results flagged for a closer look

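Of 224 groups of 4 or 5 values of the 28 genes, 8 had 1 array far from the others by Dixon's test at the 95% level, where chance alone gives 11.2, about 1 group in 20. Of the 8, 2 were on WT day 3 replicate 2, which read 8.42 for Srebf1 (the other 3 arrays 9.38 to 9.51) and 8.90 for Abcg1 (9.78 to 9.94), the array that also stood apart over all genes. The array labelled KO sham replicate 2, which goes against its label for Ntrk2, read 9.46 for Pmvk (9.36 to 9.37). Hmgcs1 read 14.56 on WT sham replicate 4 (14.26 to 14.30), Idi1 10.47 on KO day 7 replicate 3 (10.29 to 10.32), Fdps 8.56 on KO day 3 replicate 1 (8.84 to 8.92), Sc5d 10.59 on KO day 1 replicate 4 (10.83 to 10.87), and Cyp46a1 6.58 on WT day 7 replicate 4 (all others 6.72). No genotype difference in the injury response passed for any of the 28 genes.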

How the results depend on the processing

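The calls made number 178 over 15 comparisons, and 25 of them were lost under at least 1 of the alternatives run. Counts of called genes stayed within 1.5 times the reported count in every comparison other than KO against WT at day 3, where 1 gene passed. That count was 2 with the mean of all probe sets, 0 with no filter, 0 with only the groups compared, 0 with array weights and 0 without the 3 day 3 arrays, and 0 to 3 with 1 array left out. Leaving out 1 array gave 11 to 14 called genes at day 1, 25 to 28 at day 3 and 25 to 28 at day 7 in KO cord, and 9 to 13, 22 to 26 and 25 to 26 in WT cord. It gave 25 to 28 between days 1 and 3, 16 to 20 between days 3 and 7, and 0 to 0 in the other comparisons. The 1 reversed value was Srebf2 at day 1 in WT cord, 0.05 with the mean of all probe sets against -0.25; the cause was not tested. Calls lost most often were Apoe in WT cord at day 3 and Insig1 between genotypes at day 3 (26 alternatives each), Mvd (15) and Tm7sf2 (12) between days 3 and 7, and Scap between days 1 and 3 (13). With the replicate number as a block, 175 of the 178 calls held. Same-numbered arrays did not deviate together in every pair (over the comparisons, correlations ran from -0.402 to 0.376), so the numbers were not taken as pairs. Between KO and WT at day 1, 3 of 4 same-numbered pairs were above 0.1 (median 0.277, against -0.0257 for other pairs). The labels do not say whether these arrays were handled together. In the 6 injury comparisons there were 112 pairings of a call with another probe set above the filter, over 15 genes. In 97 of these pairings the other probe set passed in the same direction, and in 5 it had the opposite sign. Low signal limits Nr1h3.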

Other observations

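Of 6 isoprenoid and accessory sterol genes analysed here, 2 fell and 1 rose at day 7 in KO cord, and 4 fell and 1 rose in WT cord, beside 31.0% and 33.3% of all genes that fell and 23.5% and 25.8% that rose. The KO counts are near these shares. Cyb5r3, a reductase that passes electrons to sterol-modifying enzymes, rose: it averaged 10.07 ± 0.08, 10.69 ± 0.18 and 10.21 ± 0.04 at days 1, 3 and 7 in KO cord, against 9.26 ± 0.09 at sham, and 10.34 ± 0.13, 10.68 ± 0.14 and 10.25 ± 0.11 in WT cord, against 9.14 ± 0.12 at sham. Pgrmc1, a membrane protein known to bind sterol-demethylating cytochromes, was 0.53 ± 0.09 lower at day 3 in KO cord and 0.35 ± 0.10 lower in WT cord on the log2 scale. Pgrmc2, its relative, was 0.38 ± 0.06 lower at day 3 in KO cord and 0.38 ± 0.07 lower in WT cord.

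Outside the cholesterol genes, the 5 genes most like the mean of the 17 enzymes over the 34 arrays were Ppa1 (Pearson's r = 0.944), Acot7 (0.944), Wdr12 (0.939), Bcl2l2 (0.936) and Pcyt1b (0.936). The 5 most like the mean of Abca1 and Abcg1 were Ctsa (0.992), Vsir (0.988), Cd5l (0.987), Trem2 (0.986) and Hexa (0.984). The arrays share 8 groups, which set most of these values, and they are given as a description. Against the mean of the other enzymes, a gene's r over the 34 arrays ran from 0.563 for Ebp to 0.990 for Idi1 and Msmo1. Taken within groups, as deviations from group means, it was 0.903 for Sqle and -0.00785 for Hsd17b7. For Insig1 it was 0.956 over all arrays and 0.208 within groups, and for Stard4 0.979 and 0.634.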
